A study of Rattus norvegicus with 9 samples.

Results

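The genes of this account are 7 rat genes of the endoplasmic reticulum (ER) stress and integrated stress responses: Hspa5, Hsp90b1, Atf4, Ddit3, Atf3, Trib3 and Asns. They were taken by their Ensembl identifiers from a table of 30560 genes, and all 7 were present and passed the filter for testing, which left 12192 genes. They were measured in 9 RNA-seq libraries of HBZY-1, an established rat line of mesangial cells from the glomerulus. The extract group had 3 libraries whose label names a high-dose water extract made from lyophilized Poecilobdella manillensis, a leech. The LPS group had 3 libraries from the LPS-induced model, LPS (lipopolysaccharide) being a component of the outer membrane of Gram-negative bacteria. The control group had 3 libraries, and the labels do not say whether those cells were untreated. The labels also do not state whether the extract cells received LPS, nor any dose or exposure time, and all 3 groups share the same single cell line. The replicates are called biological, with no word on separate cultures, so p-values measure the spread between these libraries. Marker genes could not be named in the table, so the labelled cell type was not checked. Values are TPM, each transcript's share of a library scaled to the same total in each, which keeps no record of sequencing depth.

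Proteins destined for secretion or for membranes are folded in the ER, and mesangial cells secrete the matrix of the glomerular tuft. When unfolded protein accumulates there, the unfolded protein response raises ER chaperones. The kinase PERK, along with kinases that sense amino acid shortage, heme deficiency or viral RNA, phosphorylates the translation factor eIF2, which slows translation and favours translation of the Atf4 mRNA; this shared route is the integrated stress response. ATF4 then activates genes of amino acid metabolism together with Ddit3 (CHOP), Atf3 and Trib3. Only mRNA was measured here, not protein, phosphorylation or translation.

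The promoters of 6 of the 7 genes, all except Atf3, were found by symbol in the RefSeq table of the rat assembly GRCr8. No promoter of Atf3 was searched, and the counts below are for the promoters of the other 6 genes. A known stress motif was matched in those of the chaperones and another in that of Trib3, so the 250 bases before the transcription start are printed for both chaperones and for Trib3, on the strand of the gene. The sequences lie at chr3:38452766-38453015 on the plus strand for Hspa5, chr7:23012294-23012543 on the minus strand for Hsp90b1 and chr3:161275534-161275783 on the minus strand for Trib3. Capitals mark matches to the ER stress response element (ERSE), searched as CCAAT and CCACG separated by any 9 bases, or to a C/EBP-ATF response element (CARE), searched as TGATGNAAN, each on both strands of the 300 bases from 250 before to 50 after the start.
Hspa5: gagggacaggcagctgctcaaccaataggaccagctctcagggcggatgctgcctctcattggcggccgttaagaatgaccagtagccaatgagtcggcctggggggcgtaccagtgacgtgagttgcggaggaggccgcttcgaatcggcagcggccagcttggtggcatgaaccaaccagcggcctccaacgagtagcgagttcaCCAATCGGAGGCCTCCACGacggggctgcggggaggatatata
Hsp90b1: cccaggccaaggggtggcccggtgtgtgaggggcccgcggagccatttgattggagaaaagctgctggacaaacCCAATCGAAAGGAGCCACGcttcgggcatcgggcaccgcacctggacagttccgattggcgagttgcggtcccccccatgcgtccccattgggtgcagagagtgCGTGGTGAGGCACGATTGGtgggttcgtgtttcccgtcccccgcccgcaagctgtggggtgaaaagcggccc
Trib3: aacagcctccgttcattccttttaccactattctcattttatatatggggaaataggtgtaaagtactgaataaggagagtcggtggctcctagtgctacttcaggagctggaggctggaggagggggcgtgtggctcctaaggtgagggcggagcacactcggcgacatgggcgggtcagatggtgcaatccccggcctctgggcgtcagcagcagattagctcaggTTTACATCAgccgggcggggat
The ERSE matched in 22 of all 33469 promoters (0.0657%), and among the 6 only in the promoters of both chaperones. In Hspa5 the match was 43 to 25 bases before the start. In Hsp90b1 there was a match on the gene's strand, 176 to 158 bases before the start, and another on the opposite strand, 72 to 54 bases before it. The CARE matched in 3.97% of all promoters and, among the 6, only in that of Trib3, 22 to 14 bases before the start and on the opposite strand. A cyclic AMP response element, TGACGTCA, matched in 1.83% of all promoters and in 0 of the 6, and ERSE-II, ATTGG and CCACG separated by any 1 base, in 0.0508% and in 0 of the 6. The CCAAT box, CCAAT, which every ERSE contains, matched in 37.5% of all promoters and in 3 of the 6, those of Hspa5, Hsp90b1 and Ddit3. These matches describe letters only, and no binding was measured. Sites with a base other than the letters given, or outside the 300 bases searched at the start listed for each gene, were not counted.

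All 7 genes were lower in extract cells than in either other group. In extract versus LPS cells the fall, fitted on the log2(TPM + 1) scale, was 8.34-fold for Atf3, a stress-induced transcription factor, and between 4.18-fold and 4.38-fold for Ddit3 and Trib3. It was 2.94-fold for Hspa5, the main ER chaperone of the Hsp70 family, and 1.90-fold for Hsp90b1, 2.05-fold for Atf4 and 2.1-fold for Asns. With LPS the genes stood only 1.13-fold to 1.40-fold higher than in control cells. Of the 7, 6 were called higher (limma, adjusted p below 0.05), as were 9.79% of all tested genes. That count fell to 3 when control replicate 1 was left out. The summed level of the 7 genes was 2907 ± 138 TPM in extract cells, 7114 ± 487 TPM in LPS cells and 5279 ± 318 TPM in control cells (SD, n = 3 each). Most of that sum came from Hspa5 and Hsp90b1, which together held 2452 ± 143, 5951 ± 437 and 4265 ± 262 TPM in the same order. It therefore says little of the other genes. These are bulk samples, in which fewer cells expressing a gene and less RNA per cell cannot be told apart.

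**Figure D1:**
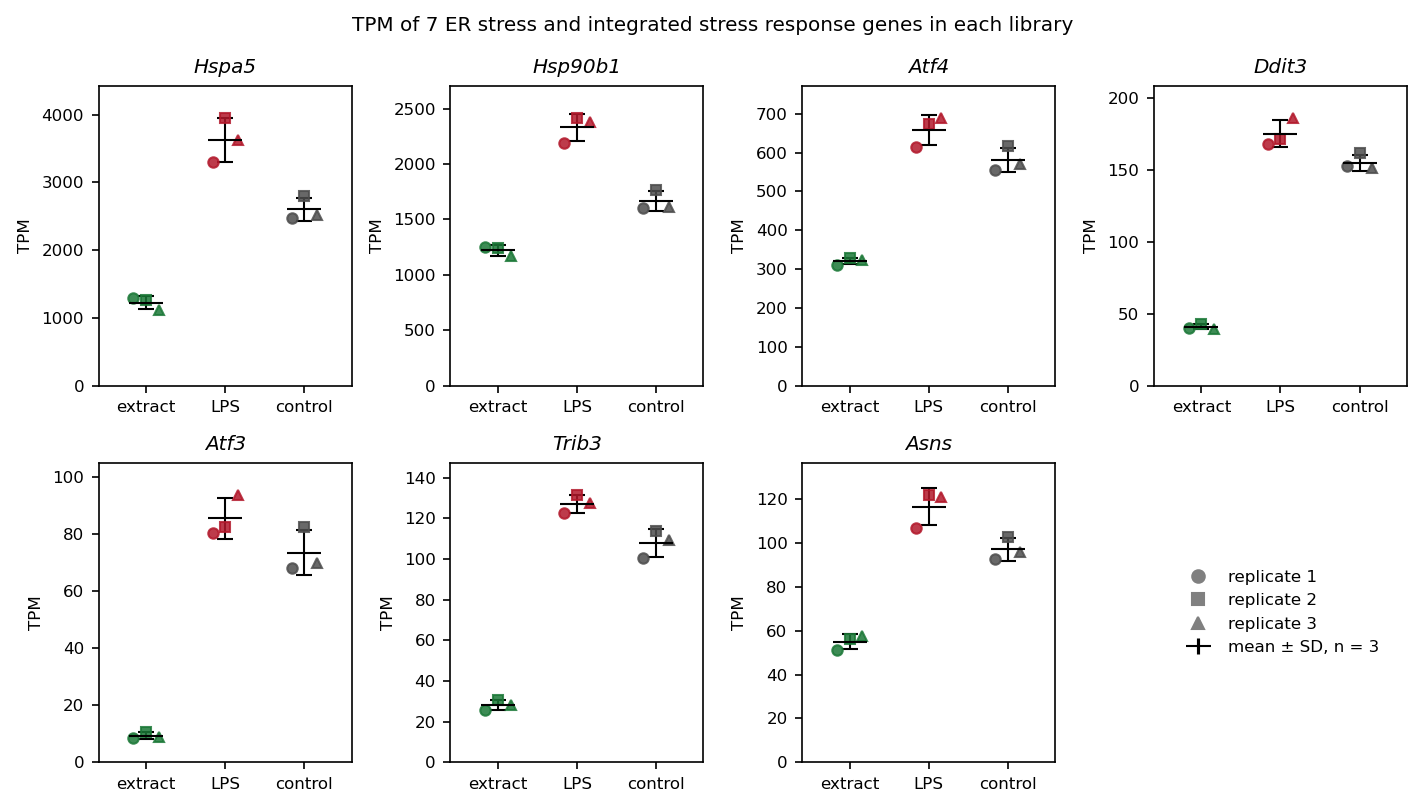
Level of each gene in TPM (linear axis from 0) in the 3 libraries of each group, with the mean and SD (n = 3) in black. The extract libraries lie below all LPS and control libraries in every panel, and the LPS and control libraries overlap in the panels of Atf4 and Atf3.

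Of the ER chaperones, Hspa5 (BiP, ENSRNOG00000018294) holds unfolded proteins and the stress sensors of the ER membrane. It stood at 1301, 1267 and 1121 TPM in the extract libraries, at 3298, 3948 and 3619.7 TPM in the LPS libraries and at 2480.2, 2799 and 2526 TPM in the control libraries. No group overlapped another, and every extract library was below every control library, with LPS on top. It was among the most abundant mRNAs of the cells, ranking between 19 and 31 in the LPS libraries and between 40 and 48 in the control libraries, and between 120 and 139 in the extract libraries. On the log2(TPM + 1) scale, limma put extract cells at -1.56 ± 0.077 (SE, adjusted p = 2.85e-07) from LPS cells and at -1.08 ± 0.077 (adjusted p = 3.83e-06) from control cells. LPS cells stood 0.48 ± 0.077 above control cells (limma adjusted p = 0.00102).

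Hsp90b1 (GRP94, ENSRNOG00000026963) is the Hsp90 of the ER and folds a narrower set of client proteins, integrins and Toll-like receptors among them. It stood at 1255, 1245 and 1168 TPM in the extract libraries, at 2193, 2413 and 2380.5 TPM in the LPS libraries and at 1608, 1768 and 1615 TPM in the control libraries. The groups did not overlap and kept the same order as for Hspa5, with extract lowest and LPS highest. By limma, extract cells differed by -0.93 ± 0.051 on the log2 scale from LPS cells (SE, adjusted p = 4.54e-07) and by -0.44 ± 0.051 from control cells (adjusted p = 7.43e-05). LPS cells were 0.49 ± 0.051 above control cells (limma adjusted p = 6.84e-05). In extract cells its mean level of 1223 ± 47.9 TPM did not differ beyond the spread from the 1229.5 ± 95.4 TPM of Hspa5 (SD, n = 3 each), whereas Hspa5 was the higher of the pair in every LPS and control library.

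Among the transcription factors, Atf4 (ENSRNOG00000017801), the effector of the integrated stress response, was the most abundant. It stood at 311, 328 and 325 TPM in the extract libraries, at 616, 673 and 689 TPM in the LPS libraries and at 554, 616 and 572 TPM in the control libraries. The extract libraries were well apart, while the highest control library, replicate 2, exceeded the lowest LPS library, replicate 1. By limma, the log2 difference of extract cells was -1.03 ± 0.051 (SE, adjusted p = 2.8e-07) from LPS cells and -0.85 ± 0.051 (adjusted p = 1.34e-06) from control cells. That of LPS cells from control cells was 0.18 ± 0.051 (limma adjusted p = 0.0187), and this call was lost when control replicate 1 (adjusted p = 0.0738), control replicate 3 (0.0638), LPS replicate 2 (0.0645) or LPS replicate 3 (0.0648) was left out of the limma fit. With median-of-ratios rescaling the LPS-control difference was 0.28.

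Ddit3 (CHOP, ENSRNOG00000006789), a partner of other bZIP factors that promotes cell death under lasting stress, stood at 40.4, 43.2 and 39.8 TPM in the extract libraries. The LPS libraries held 168, 172 and 186 TPM and the control libraries 152, 161 and 151 TPM. Extract cells were far below both other groups, and LPS cells slightly above control cells without overlap. In limma, Ddit3 lay -2.06 ± 0.049 (SE, adjusted p = 7.92e-09) from LPS and -1.89 ± 0.049 (adjusted p = 8.04e-09) from control in extract cells, on the log2 scale. LPS cells lay 0.18 ± 0.049 above control cells (limma adjusted p = 0.018). That last call was lost without control replicate 1 (limma adjusted p = 0.0605), control replicate 3 (0.0649) or LPS replicate 3 (0.0565), and the difference was 0.27 with median-of-ratios rescaling.

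Atf3 (ENSRNOG00000003745), a factor induced by many stresses that represses inflammatory genes in mouse macrophages, moved furthest. It stood at 8.45, 10.8 and 8.92 TPM in the extract libraries, at 80.2, 82.5 and 93.7 TPM in the LPS libraries and at 68.05, 82.4 and 69.6 TPM in the control libraries. Extract cells held 12.8% of the control mean, and control replicate 2 lay within the range of the LPS libraries. The log2 difference from LPS cells was -3.06 ± 0.10 (SE, limma adjusted p = 3.53e-08), and that from control cells was -2.84 ± 0.10 (limma adjusted p = 5.46e-08). Because the added 1 TPM weighs on low values, the ratio of the mean TPM was larger than the fitted fold, at 9.11-fold lower in extract than in LPS cells. The log2 difference of 0.22 ± 0.10 between LPS and control cells did not pass the test (limma adjusted p = 0.111). It passed after median-of-ratios rescaling (limma adjusted p = 0.0327), after quantile normalization (0.049) and without control replicate 2 (0.0429).

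Of the downstream genes, Trib3 (ENSRNOG00000007319) encodes a pseudokinase that is induced by ATF4 and CHOP and binds ATF4 and AKT. It stood at 25.9, 30.7 and 28.3 TPM in the extract libraries, at 123, 132 and 127 TPM in the LPS libraries and at 100.3, 114 and 109 TPM in the control libraries. The groups did not overlap, and extract cells held 26.3% of the control mean. Extract cells lay -2.13 ± 0.066 on the log2 scale from LPS cells (SE, limma adjusted p = 2.51e-08) and -1.89 ± 0.066 from control cells (limma adjusted p = 4.93e-08). LPS cells lay 0.24 ± 0.066 above control cells (limma adjusted p = 0.017). The LPS-control call was lost without control replicate 1 (limma adjusted p = 0.0663) or LPS replicate 2 (0.0636).

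Asns (ENSRNOG00000007546), the asparagine synthetase that ATF4 induces when amino acids are short, stood at 50.99, 56.1 and 57.7 TPM in the extract libraries. The LPS libraries held 107, 122 and 121 TPM and the control libraries 92.6, 103 and 95.75 TPM. The groups did not overlap, and extract cells held 56.6% of the control mean, close to the 55.3% of Atf4. On the log2 scale, Asns in extract cells differed by -1.07 ± 0.066 from LPS cells (SE, limma adjusted p = 9.36e-07) and by -0.81 ± 0.066 from control cells (limma adjusted p = 8.5e-06). In LPS cells it was 0.26 ± 0.066 above control (limma adjusted p = 0.0112).

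**Figure D2:**
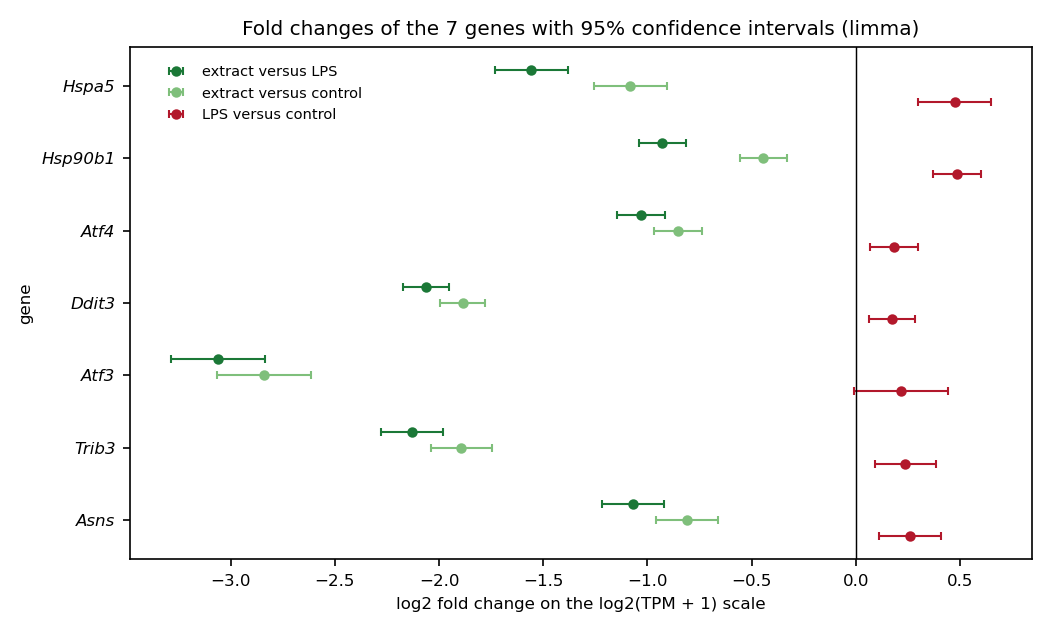
Difference of each gene on the log2(TPM + 1) scale (x axis) in the 3 comparisons, with 95% confidence intervals from limma. All intervals of both extract comparisons lie below 0, and all LPS-control intervals lie above 0 except that of Atf3, which runs from -0.01 to 0.44.

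The counts were set against all tested genes. Because the 7 genes were chosen with earlier results of these data known, the counts, overlaps and ranks here and below only describe them. They are no independent support for the set. In extract versus LPS, 7 of the 7 genes were called lower (limma, adjusted p below 0.05), as were 25.0% of all tested genes, and 6 of the 7 were called and at least 2-fold lower, as were 2.05% of all. Hsp90b1 was the exception to the 2-fold count. In extract versus control, 7 of 7 were called lower, against 29.4% of all, and 4 of 7 at least 2-fold lower, against 1.85% of all. Those 4 were Atf3, Trib3, Ddit3 and Hspa5. In LPS versus control, 6 of 7 were called higher, against 9.79% of all, and 0 of 7 at least 2-fold higher, against 1.29% of all. With median-of-ratios rescaling, 7 of 7 were called higher in LPS versus control. That rescaling changed the split of all LPS-control calls to 2102 higher and 2278 lower, where TPM as deposited gave 1193 higher and 3769 lower. Without control replicate 1 the count of 6 fell to 3, without control replicate 3, LPS replicate 2 or LPS replicate 3 to 4. The counts of 7 in the extract comparisons were the same under every alternative run.

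Values did not overlap in 7 of 7 genes in extract versus LPS, lower in extract, where 27.8% of all tested genes did so, and in 7 of 7 in extract versus control, where 34.8% did. In LPS versus control 5 of 7 were higher without overlap, against 12.5% of all tested genes. The median log2 difference of the 7 genes was -1.56 in extract versus LPS, -1.08 in extract versus control and 0.24 in LPS versus control. Over all tested genes the medians were 0.04, -0.04 and -0.08 in the same comparisons. Extract versus LPS and extract versus control share the extract libraries, and the values above are those of each comparison on its own.

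Ranked by log2 difference in extract versus LPS among the 12192 tested genes, 14 genes had a lower value than Atf3. There were 38 below Trib3, 44 below Ddit3 and 106 below Hspa5. Asns, Atf4 and Hsp90b1 had 255, 278 and 328 genes below them. By LPS-control difference, Hsp90b1 and Hspa5 lay higher than 96.2% and 96.1% of the tested genes, and the other members higher than between 88.1% and 92.2%. The chaperones thus had the highest LPS-control values of the 7, with 95% intervals that overlapped those of Asns, Trib3 and Atf3, whereas Atf3, Trib3 and Ddit3 had the lowest values in extract cells. The 95% intervals of the extract-LPS differences put Atf3 (-3.29 to -2.84) apart from all others. Those of Trib3 (-2.28 to -1.98) and Ddit3 (-2.17 to -1.95) overlapped each other, and that of Hspa5 (-1.73 to -1.38) overlapped none. Those of Asns, Atf4 and Hsp90b1 overlapped one another, between -1.22 and -0.81. Each interval treats 1 gene alone, so overlap does not test a difference between genes measured in the same libraries.

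**Figure D3:**
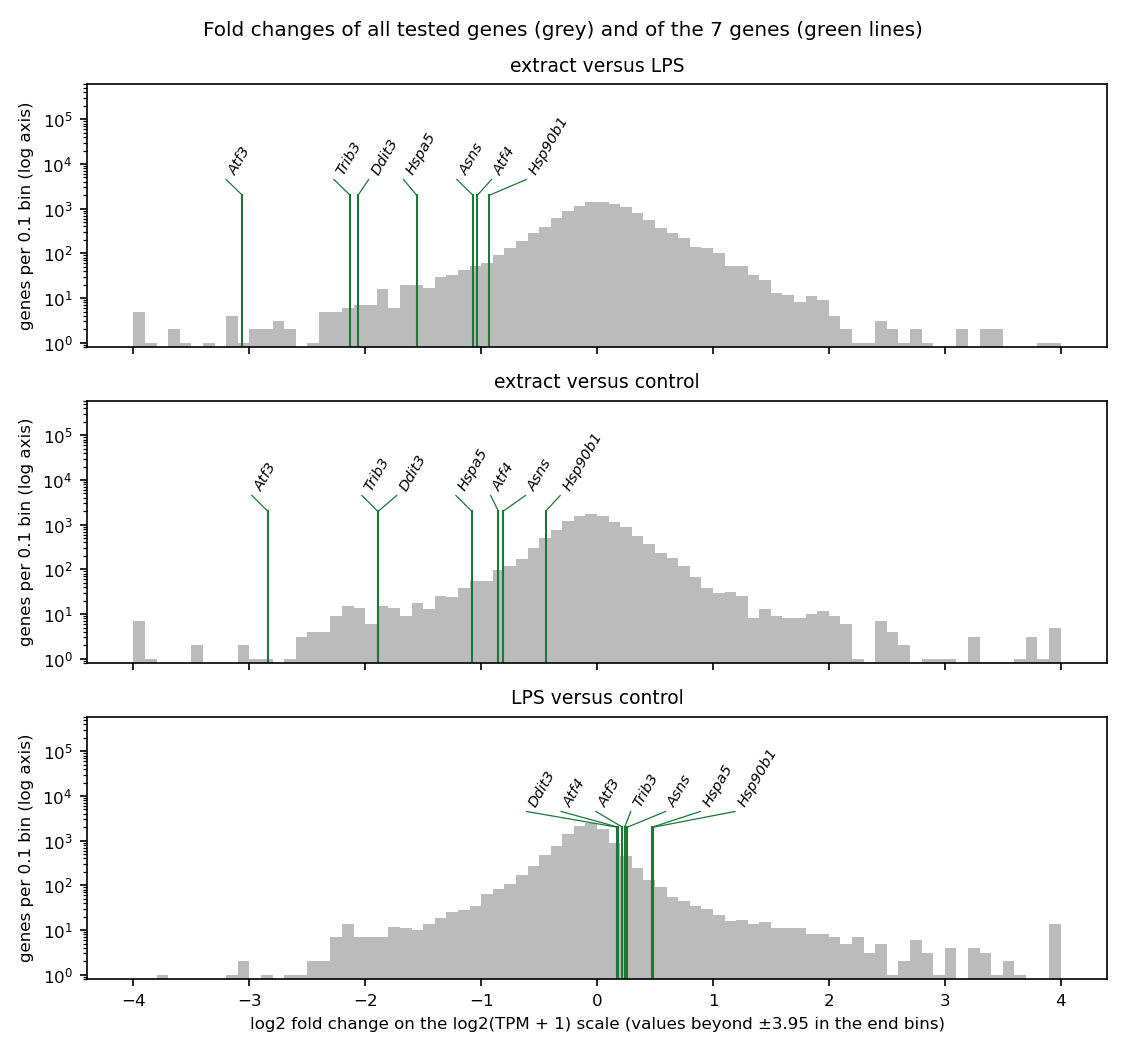
Distribution of log2 differences over the 12192 tested genes (grey, genes per bin on a log axis) in the 3 comparisons, with the 7 genes as green lines. In both extract comparisons the genes lie on the left side of the distribution, with Atf3 furthest left, and in LPS versus control all 7 lie slightly right of 0.

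Ratios of TPM between the genes within a library do not change when a library is multiplied by 1 factor, as in median-of-ratios rescaling, and 6 ratios were compared in the 3 comparisons, 18 in all; these ratios were chosen with the values known. With 3 libraries against 3, an exact two-sided permutation test cannot go below p = 0.1, which after Benjamini-Hochberg adjustment over the 18 gives 0.15, so none could pass 0.05. The ratio of Hspa5 to Hsp90b1 was 1.00 ± 0.040 in extract, 1.55 ± 0.072 in LPS and 1.56 ± 0.020 in control libraries (SD, n = 3 each). The extract libraries did not overlap with either other group (exact permutation p = 0.1 for each), and LPS and control overlapped (exact permutation p = 0.9). Hspa5 was thus lower relative to Hsp90b1 in all 3 extract libraries.

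Relative to Atf4, Ddit3 stood at 0.128 ± 0.0048 in extract, 0.266 ± 0.0094 in LPS and 0.267 ± 0.0070 in control libraries (SD, n = 3 each). Atf3 stood at 0.0292 ± 0.0032, 0.130 ± 0.0067 and 0.126 ± 0.0067 of Atf4 in extract, LPS and control libraries, and Trib3 at 0.0881 ± 0.0053, 0.193 ± 0.0075 and 0.186 ± 0.0050. For these 3 genes the extract libraries did not overlap with either other group (exact permutation p = 0.1 each). LPS and control libraries overlapped, with exact permutation p = 0.9 for Ddit3, 0.6 for Atf3 and 0.3 for Trib3. Asns differed from these genes, with 0.171 ± 0.0070 of Atf4 in extract, 0.177 ± 0.0041 in LPS and 0.167 ± 0.00051 in control libraries. Its ratio overlapped between extract and each of the others (exact permutation p = 0.4 each), though not between LPS and control (exact permutation p = 0.1). The ratio of Hspa5 to Atf4 was 3.83 ± 0.36 in extract, 5.49 ± 0.33 in LPS and 4.48 ± 0.062 in control libraries, with no overlap between any groups (exact permutation p = 0.1 each).

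**Figure D4:**
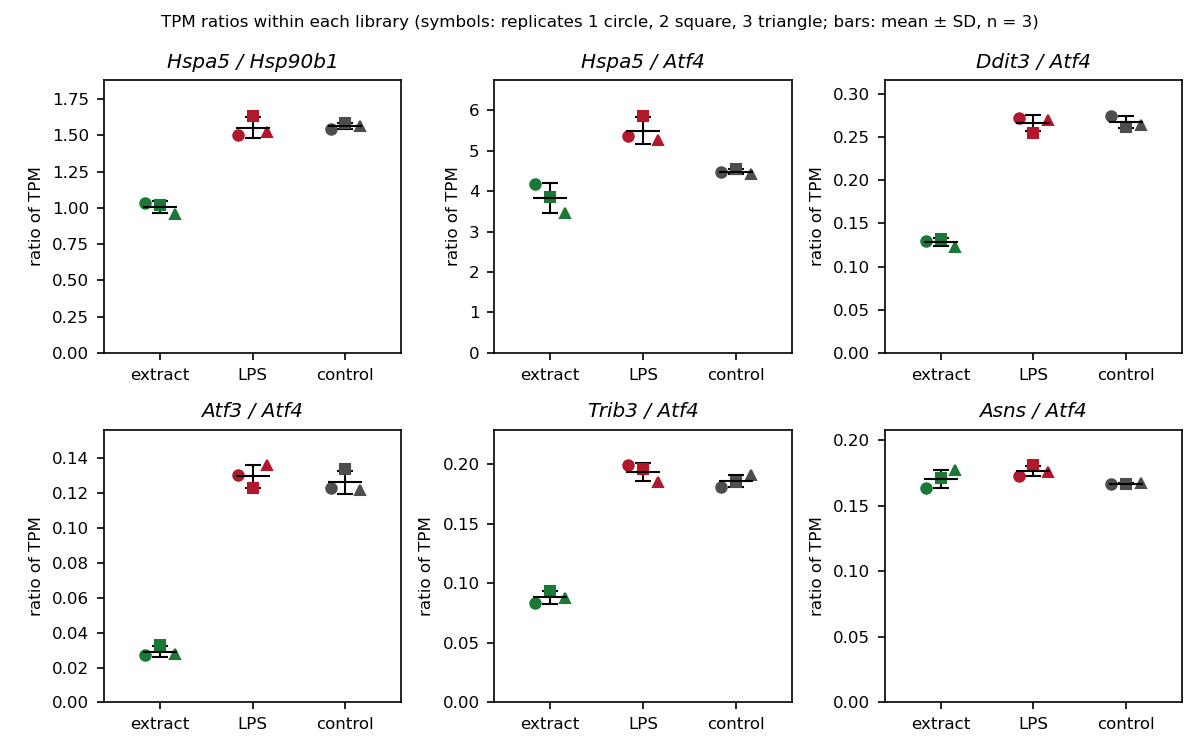
Ratios of TPM between members within each library (y axes from 0), with the mean and SD of 3 libraries. The extract libraries lie below both other groups in every panel except that of Asns to Atf4, where they overlap with both.

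The likeness of the genes was described by Pearson's r of log2(TPM + 1) over the 9 libraries. Since the libraries fall into 3 groups, r mostly reflects the group means, and no p is given. Over the 21 pairs of members r lay between 0.879, for Hsp90b1 and Atf3, and 0.999, for Ddit3 and Atf3. Of the 12191 other tested genes, Atf3 was the most alike to Ddit3, and Ddit3 and then Trib3 were the most alike to Atf3. Asns ranked 14 among the genes most alike to Atf4, and Atf4 ranked 3 among those most alike to Asns. The remaining nearest genes were not named in the table.

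The 7 genes also shared small deviations of single libraries in the control and LPS groups. In the extract group no library was the highest or the lowest for all 7. In the extract group, replicate 1 was the highest library for 2 genes, replicate 2 for 4 and replicate 3 for 1. The same replicates were highest for 33.5%, 32.9% and 33.6% of all tested genes. Extract replicate 1 was the lowest for 4 of the 7 genes, replicate 2 for 0 and replicate 3 for 3. Those replicates were lowest for 37.5%, 30.1% and 32.5% of all tested genes. Control replicate 2 was the highest of the 3 control libraries for all 7 genes, as it was for 34.4% of all tested genes. LPS replicate 1 was the lowest of the 3 LPS libraries for all 7, as it was for 32.4% of all tested genes. The 7 genes are therefore not independent replicates of each comparison. The part of these libraries in the results was measured by leaving each out in turn, and the extract calls did not change.

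At the level of transcripts, 5 genes had a single transcript above 0 TPM, and Hsp90b1 had 2, with between 98.8% and 99.4% of its TPM in the same transcript in every library. Ddit3 had 2, of which ENSRNOT00000083472 was listed at 0 TPM in 5 of the 9 libraries and at most 24.4% of the gene's TPM, in extract replicate 2. The other Ddit3 transcript, ENSRNOT00000008941, stood at 36.5, 32.7 and 39.8 TPM in extract, 145.8, 172 and 186 TPM in LPS and 140.3, 161 and 151 TPM in control libraries. It was thus far lower in every extract library, as the whole gene was. None of the 7 genes had the same values as another gene of the table in every library.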

How the data were processed

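RNA-seq of HBZY-1 rat mesangial cells was analysed in 9 libraries, 3 per group by the labels' group field. The authors deposited gene and transcript TPM rounded to 2 decimals, with fastp, HISAT2 2.1.0 and RSEM 1.3.3 listed in the submitters' processing notes but no roles. Not given in the sources used here are build, annotation, strandedness and the treatment of reads shared by near-identical copies. TPM keeps no depth, so no counting interval is given, and it is relative, so abundant genes that rise lower all others.

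The table pairs no identifier with a name. The 7 identifiers carry the names under which they were chosen. The reference table (47357 genes, GRCr8) holds 0 Ensembl identifiers, so the fixed lists of other stress response genes and cell type markers were not analysed here. Members and lists were chosen with earlier results of these data known.

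Genes averaging 1 TPM or more were tested as log2(TPM + 1) in a single model of 3 group means with limma 3.58.1 in R 4.3.3 (two-sided moderated tests with a trend of variance on mean; residual degrees of freedom: 6). P-values were adjusted by Benjamini-Hochberg over all 12192 genes, with calls below 0.05. The procedure was tested on simulated data. Named genes are the 7 members; the genes most alike were to be named only if the table paired them with a symbol. Transcripts were linked to a gene where consecutive transcript values summed to its TPM in all 9 libraries, within 0.006 TPM for each rounded value. Tried as alternatives were pseudocounts of 0.1 and 5, filtering at 5 TPM or not at all, median-of-ratios and quantile scaling, fits without the trend, with a replicate block or of the 2 compared groups alone, and omission of each library.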

Additional observations from a re-analysis of the deposited data

How the results depend on the processing

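Each of 21 values (7 genes in 3 comparisons) was recomputed under 18 alternatives, 378 in all, and 366 kept their direction and their side of the threshold, including all of both extract comparisons. None reversed. The log2 difference itself could not move when only the filter, the trend, the replicate block or the groups fitted changed. Nor could it move when the library left out belonged to the group not compared. Those settings bear on the calls alone. The 12 of the 378 values that changed sides all concern LPS versus control. The log2 difference of Atf3, 0.22 with TPM as deposited, passed with median-of-ratios scaling (0.31) and quantile normalization (0.28), both of which centre the libraries. With 1 library left out in turn it lay between 0.15 and 0.30, and passed without control replicate 2. Over the same settings Atf4 lay between 0.15 and 0.23 (4 lost calls), Ddit3 between 0.13 and 0.20 (3 lost calls) and Trib3 between 0.19 and 0.28 (2 lost calls); those fits have fewer samples. With median-of-ratios scaling Atf4 (0.28), Ddit3 (0.27), Trib3 (0.33) and Atf3 (0.31) lay above these ranges and were called. Hspa5 (0.57), Hsp90b1 (0.58) and Asns (0.35) likewise lay above their own ranges with 1 library left out. Over all genes, TPM as deposited gave 1193 LPS-control calls higher and 3769 lower, median-of-ratios scaling 2102 and 2278, and quantile normalization 1940 and 2402. No pairing by replicate number was assumed. Deviations of same-numbered libraries from different groups correlated between -0.055 and 0.095, and those of differently numbered libraries between -0.110 and 0.089. Of the 9 libraries, 6 were most alike, in their deviation, to one that bears the same number. Whether the libraries were paired was not tested. With the replicate block no call of the 7 genes changed (Atf3 between LPS and control, limma adjusted p = 0.0703). The block lowered the SE of each of the 7 genes, most for Trib3 (0.0656 to 0.0363) and least for Ddit3 (0.0489 to 0.0487). Under the block the numbers of genes called higher and lower were 4099 and 2973 for extract versus LPS, 2608 and 3462 for extract versus control, and 1105 and 3553 for LPS versus control. The alternatives for lists of other pathway genes were not run, since their identifiers carry no names. The within-library ratios of TPM do not depend on median-of-ratios scaling, the pseudocount or the filter by construction; under quantile normalization they would change and were not recomputed. Without read depth, the precision of low values such as those of Atf3 in extract cells rests on the replicate spread alone.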
